A study of Mus musculus with 16 samples.

Results

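10 genes that mark macrophages or serve their uptake of particles and debris were followed in the newborn mouse lung after ozone: the scavenger and uptake receptors Marco, Msr1, Mrc1 and Cd68, the identity genes Csf1r, Adgre1, Ms4a7 and Mpeg1, and the secreted products C1qa and Spp1. They were found on the array by name, Adgre1 under its older name Emr1, which gave 10 genes with 17 probes among the 41174 probes that are not controls. All 10 genes and all 17 probes passed the filter on dim probes. BALB/c pups, an inbred strain, were 3 days old when they inhaled 1000 ppb ozone, or filtered air as controls, during 3 h. Whole lungs were collected after a further 6 h or 24 h. The 4 groups, ozone 6 h, air 6 h, ozone 24 h and air 24 h, held 4 lungs each, 1 array per lung. Each time point was a run of its own with littermates in air, and pups stayed with a dam through cross-fostering. Ozone was therefore compared with air within a time point. The labels name no other treatment and no genetic change in any group.

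Macrophages take up inhaled particles, bacteria and dying cells through scavenger receptors, and their survival depends on signals through the receptor encoded by Csf1r. In the days after birth fetal monocytes settle in the airspaces and become alveolar macrophages, while other macrophages lie in the tissue between them. In mice, MARCO and MSR1 are known to clear oxidised lipids of the kind that ozone forms in the fluid lining the lung.

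At 24 h, the identity genes Ms4a7, Mpeg1 and Csf1r were higher in ozone lungs, by 0.72, 0.53 and 0.31 on the log2 scale, and 9 of the 10 genes had a positive difference. At 6 h, Spp1 was lower in ozone lungs by a log2 difference of -0.88 and Mrc1 by -0.39, and no gene of the 10 was called higher. The calls of Mpeg1 and Csf1r were each lost in 7 of the 16 fits that left out 1 lung, and that of Mrc1 in 12. Those of Ms4a7 at 24 h and Spp1 at 6 h were kept in all 16. Averaging the probes of Csf1r brought its 24 h difference to 0.12, not called. The ozone effect on Ms4a7 was called as different between the time points, a call that normexp background correction ended, as it did the 24 h call of this gene. The scavenger receptors Marco and Msr1 were not called at either time, although 2 of 13 alternatives called Marco at 24 h. Values throughout are log2 of the array signal relative to the 75th percentile of the same array, so 0 is the signal of a fairly bright probe. A gene was called when its Benjamini-Hochberg adjusted p from limma over all 21631 genes was under 0.05. Differences compare 4 lungs a side. Their standard error (SE) is limma's, with the spread pooled over all 16 arrays, so a gene has the same SE at 6 h and 24 h. In whole lung, fewer cells of a type and less RNA per cell cannot be told apart.

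Array signal of the 75th percentile ran between 574 and 946, and the share of bright spots, those well above background, lay between 65.0% and 83.9%. Ozone 6 h replicate 3 had the highest share, and it also had the lowest array weight (0.21). The lung label held against its markers: Sftpc, the surfactant protein of alveolar type II cells, averaged 9.52 in ozone and 9.44 in air lungs at 6 h. The level of Xist, the RNA made in female cells, was high in 1 of the 4 ozone 24 h lungs and in 3 of the 4 air 24 h lungs, and in 2 ozone and 3 air lungs at 6 h. The ozone 24 h lung with high Xist, replicate 2, had the lowest value of its group for 7 of the 10 genes, namely Marco, Msr1, Cd68, Csf1r, Adgre1, Mpeg1 and C1qa. In the air 24 h group the only lung with low Xist, also replicate 2, was the lowest for 2 of the genes and the highest for 4. In the air 6 h group the only lung with low Xist, replicate 1, was the lowest for 0 of the genes and the highest for 5, namely Marco, Mrc1, Adgre1, Mpeg1 and C1qa.

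The sequences below show what the array measured for the gene that changed most at 24 h, and what lies before the starts of genes that changed. The 2 probes of Ms4a7 on chromosome 19 (mm9, minus strand) lie at chr19:11396026-11396801, a span that includes an intron, and at chr19:11396004-11396063. They share 35 letters, shown in capitals, so they are not independent readings of the gene.
Ms4a7 probe at transcript base 692: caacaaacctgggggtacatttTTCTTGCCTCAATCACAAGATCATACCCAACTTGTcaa
Ms4a7 probe at transcript base 714: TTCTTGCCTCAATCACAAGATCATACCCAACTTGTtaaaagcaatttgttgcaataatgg
Mpeg1 and C1qa are shown with a probe each, at chr19:12537697-12537756 on the plus strand and chr4:136452409-136452468 on the minus strand of mm9. The Mpeg1 probe shown is the dimmer of its 2.
Mpeg1 probe at transcript base 2257: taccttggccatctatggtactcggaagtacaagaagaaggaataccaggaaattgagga
C1qa probe at transcript base 444: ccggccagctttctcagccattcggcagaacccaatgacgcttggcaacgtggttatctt

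RefSeq promoter windows of build GRCm38.p6 were used here for 6 of the 10 genes, in 8 windows, with 2 annotated starts each for Ms4a7 and Spp1. The 250 bases before the start are shown for the pair called lower at 6 h, Spp1 and Mrc1, and for the pair with the largest called differences at 24 h, Ms4a7 and Mpeg1. Capitals mark GAGGAA on either strand (TTCCTC as written when it lies on the other strand). These letters occur in the motif bound by PU.1, a transcription factor that macrophages need.
Spp1, chr5:104434861-104435110, plus strand: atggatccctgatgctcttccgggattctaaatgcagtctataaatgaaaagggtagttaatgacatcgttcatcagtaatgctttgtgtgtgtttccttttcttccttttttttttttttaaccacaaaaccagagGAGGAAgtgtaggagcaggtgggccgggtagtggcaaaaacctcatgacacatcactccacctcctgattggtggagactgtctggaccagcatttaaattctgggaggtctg
Mrc1, chr2:14229164-14229413, plus strand: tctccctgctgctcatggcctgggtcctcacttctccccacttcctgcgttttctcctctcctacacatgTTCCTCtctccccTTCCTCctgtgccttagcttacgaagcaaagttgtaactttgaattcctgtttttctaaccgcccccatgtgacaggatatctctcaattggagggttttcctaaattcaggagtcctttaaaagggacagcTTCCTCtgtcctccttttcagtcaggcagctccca
Ms4a7, chr19:11336147-11336396, minus strand: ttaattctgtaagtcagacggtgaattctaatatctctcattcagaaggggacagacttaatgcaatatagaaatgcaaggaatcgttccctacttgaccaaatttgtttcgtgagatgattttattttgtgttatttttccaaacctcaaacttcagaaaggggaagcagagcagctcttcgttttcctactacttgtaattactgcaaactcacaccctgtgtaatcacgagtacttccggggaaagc
Mpeg1, chr19:12460520-12460769, plus strand: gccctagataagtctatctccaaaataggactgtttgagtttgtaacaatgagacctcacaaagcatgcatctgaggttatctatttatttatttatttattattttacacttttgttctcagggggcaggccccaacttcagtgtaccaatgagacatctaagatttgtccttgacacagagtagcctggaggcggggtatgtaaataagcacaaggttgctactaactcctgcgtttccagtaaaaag
GAGGAA was found at 113 bases before the start of Spp1, where the longer run GAGGAAGT also matched, and at 180, 167 and 35 bases before the start of Mrc1. The other Spp1 window held neither run. GAGGAA was found in neither the 2 Ms4a7 windows nor the Mpeg1 window, and it was in 4 of the 6 genes. No window was used for Csf1r, called at 24 h, nor for Msr1, Adgre1 and C1qa. The shares that follow count windows, not genes. Of all 32851 windows 23.25% held GAGGAA and 2.44% held the longer run, on either strand. The AP-1 type motif TGANTCA, in 6.75% of all windows, matched at none of the same bases as GAGGAA. It was found in Cd68 at 149 and 24 bases before the start and in 1 Ms4a7 window. A match of letters is a description of the window, not a site of binding.

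Among the receptors, Marco encodes a class A scavenger receptor best known on alveolar macrophages. At 24 h, Marco read -1.34, -1.82, -1.52 and -1.36 in ozone lungs, against -2.27, -2.18, -1.80 and -2.15 in air lungs. Ozone replicate 2 lay just below the highest air lung, so the groups overlapped. The difference was 0.59 ± 0.22 (adjusted p = 0.207, limma), with a 95% interval of 0.14 to 1.04, and did not pass the test. Marco was called with the 8 arrays of 24 h alone (0.59, adjusted p = 0.0473, limma) and with array weights (0.62, adjusted p = 0.0383, limma). Its SD was 0.22 in ozone and 0.21 in air lungs at 24 h, and 0.46 and 0.42 at 6 h (n = 4 each). At 6 h, Marco read -1.76, -2.26, -1.27 and -1.32 in ozone lungs, against -1.31, -1.86, -2.15 and -1.32 in air lungs. The ranges of the groups almost coincided, and the difference was 0.01 ± 0.22 (adjusted p = 0.991, limma). Its probe was bright enough on all 16 arrays.

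Msr1 encodes scavenger receptor A, which binds modified lipoproteins and bacteria. At 24 h, Msr1 read -2.84, -3.17, -3.12 and -2.99 in ozone lungs, against -3.05, -2.99, -2.97 and -2.75 in air lungs. Ozone replicates ran within or just below the air range, with a difference of -0.09 ± 0.16 (adjusted p = 0.915, limma). At 6 h, Msr1 read -2.75, -2.76, -2.14 and -2.73 in ozone lungs, against -2.47, -2.75, -2.48 and -2.18 in air lungs. Ozone replicate 3, the array with the largest share of spots above background, stood apart as the highest, and the difference was -0.12 ± 0.16 (adjusted p = 0.672, limma). All 3 Msr1 probes had negative differences at both times, between -0.21 and -0.12 at 6 h and between -0.18 and -0.03 at 24 h, none called.

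Mrc1 encodes the mannose receptor, which binds sugars of microbes and of the body's own glycoproteins. At 6 h, Mrc1 read 0.39, 0.54, 0.36 and 0.30 in ozone lungs, against 1.03, 0.53, 0.60 and 1.01 in air lungs. Air replicate 2 equalled the highest ozone lung within 0.01, so the groups met although all other air lungs were above every ozone lung. The difference was -0.39 ± 0.11 (adjusted p = 0.0425, limma), the gene ranking 816 by p over all genes. Leaving out any of 12 of the 16 lungs, all but air 6 h replicates 2 and 3 and ozone 24 h replicates 1 and 3, ended the call. Over those fits the adjusted p lay between 0.0521 and 0.171 and the difference between -0.44 and -0.31. By slide it was -0.32 and -0.47. At 24 h, Mrc1 read -0.12, -0.26, -0.40 and -0.21 in ozone lungs, against -0.30, -0.26, -0.29 and -0.32 in air lungs. The groups overlapped fully, with a difference of 0.05 ± 0.11 (adjusted p = 0.939, limma).

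Cd68 encodes a glycoprotein of the lysosome membrane used as a general macrophage marker. At 24 h, Cd68 read -0.71, -1.08, -0.96 and -0.65 in ozone lungs, against -1.27, -1.04, -1.11 and -1.19 in air lungs. Ozone replicate 2 lay inside the air range and the other 3 ozone lungs above it. The difference was 0.30 ± 0.13 (adjusted p = 0.298, limma). At 6 h, Cd68 averaged -0.76 ± 0.26 in ozone and -0.75 ± 0.17 in air lungs (SD, n = 4 each), with a difference of -0.02 ± 0.13 (adjusted p = 0.957, limma).

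Of the identity genes, Ms4a7 encodes a membrane-spanning protein found mostly in macrophages. At 24 h, Ms4a7 read -1.14, -1.30, -1.32 and -1.49 in ozone lungs, against -2.00, -2.14, -1.98 and -2.01 in air lungs. Every ozone lung was above every air lung by more than the range within either group. The difference was 0.72 ± 0.10 (1.64-fold, adjusted p = 0.000759, limma), and the gene ranked 42 by p over all genes. It was called in all 16 fits that each left out 1 lung, between 0.66 and 0.78. With normexp background correction the difference was 0.40 (adjusted p = 0.0881, limma) and the call was lost, where the median over all genes was -0.13. On the slide of replicates 1 and 2 alone the difference was 0.85, and on the slide of replicates 3 and 4 it was 0.59. Its second probe gave 0.78 ± 0.11 (adjusted p = 0.00121, limma over probes), with 1.56% of all probes called. At 6 h, Ms4a7 read -1.13, -1.35, -1.47 and -1.33 in ozone lungs, against -1.06, -1.23, -0.91 and -1.14 in air lungs. Ozone replicate 1 reached into the air range. The difference was -0.24 ± 0.10 (adjusted p = 0.186, limma), and the second probe gave -0.28 ± 0.11 (adjusted p = 0.178, limma over probes), where 3.64% of all probes were called.

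Mpeg1 encodes perforin-2, a pore-forming protein that acts on engulfed bacteria. At 24 h, Mpeg1 read 3.53, 3.07, 3.19 and 3.49 in ozone lungs, against 2.81, 2.86, 2.83 and 2.67 in air lungs. The groups did not overlap, and the spread was wider in ozone lungs (SD 0.23) than in air lungs (SD 0.08). The difference was 0.53 ± 0.12 (1.44-fold, adjusted p = 0.0359, limma). Leaving out any 24 h lung other than ozone replicate 2 ended the call, with differences between 0.45 and 0.57 and adjusted p between 0.053 and 0.123. The dimmer probe of the gene, at -3.75 ± 0.12 in ozone and -4.02 ± 0.25 in air lungs (SD, n = 4 each), gave 0.28 ± 0.17 (adjusted p = 0.61, limma over probes). At 6 h, Mpeg1 read 3.89, 4.08, 3.60 and 3.66 in ozone lungs, against 3.96, 3.68, 3.46 and 3.80 in air lungs. The groups overlapped, with a difference of 0.08 ± 0.12 (adjusted p = 0.719, limma) for the bright probe and 0.42 ± 0.17 (adjusted p = 0.192, limma over probes) for the dim one.

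Csf1r encodes the receptor for CSF1 and IL-34, growth factors that macrophages need to live. At 24 h, Csf1r read 0.89, 0.76, 0.87 and 0.87 in ozone lungs, against 0.47, 0.54, 0.58 and 0.55 in air lungs. The groups did not overlap, and ozone replicate 2 stood apart as the lowest of its group. The difference was 0.31 ± 0.07 (1.24-fold, adjusted p = 0.0275, limma). As for Mpeg1, leaving out any 24 h lung other than ozone replicate 2 ended the call, with differences between 0.29 and 0.33 and adjusted p between 0.054 and 0.0981. With Xist as a covariate the difference was 0.25 (adjusted p = 0.138, limma), that of Mpeg1 0.44 (adjusted p = 0.166, limma) and that of Ms4a7 0.73 (adjusted p = 0.00395, limma). On the slide of replicates 1 and 2 the Csf1r difference was 0.32 and on the other 0.30, and that of Mpeg1 was 0.46 and 0.59. At 6 h, Csf1r read 0.49, 0.29, 0.37 and 0.34 in ozone lungs, against 0.34, 0.37, 0.18 and 0.14 in air lungs. The groups overlapped, with a difference of 0.12 ± 0.07 (adjusted p = 0.36, limma).

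The 3 Csf1r probes disagreed in size. At 24 h the brightest gave 0.31 ± 0.07 (adjusted p = 0.0318, limma over probes), the second 0.15 ± 0.10 (adjusted p = 0.636, limma over probes) and the dimmest -0.11 ± 0.53 (adjusted p = 0.979, limma over probes). The second was well above background on all 16 arrays and the dimmest on 12. At 6 h the dimmest read -2.06 on ozone replicate 3 against -5.56, -5.31 and -4.96 on the other ozone arrays. Averaging the 3 probes gave 0.12 at 24 h (adjusted p = 0.945, limma).

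Adgre1 encodes F4/80, the classic surface marker of mouse macrophages. At 24 h, Adgre1 read 0.97, 0.54, 0.56 and 0.72 in ozone lungs, against 0.34, 0.23, 0.41 and 0.16 in air lungs. The groups did not overlap, and the difference was 0.41 ± 0.13 (adjusted p = 0.151, limma), which did not pass the test over all genes. At 6 h, Adgre1 read 1.34, 1.21, 1.07 and 0.85 in ozone lungs, against 1.68, 1.29, 1.03 and 1.54 in air lungs. The groups overlapped, with a difference of -0.27 ± 0.13 (adjusted p = 0.261, limma). Its other probe, nearer the start of the transcript, was well above background on 0 of 8 arrays at 6 h and on all 8 at 24 h, and gave -0.05 ± 0.32 at 24 h.

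**Figure D1:**
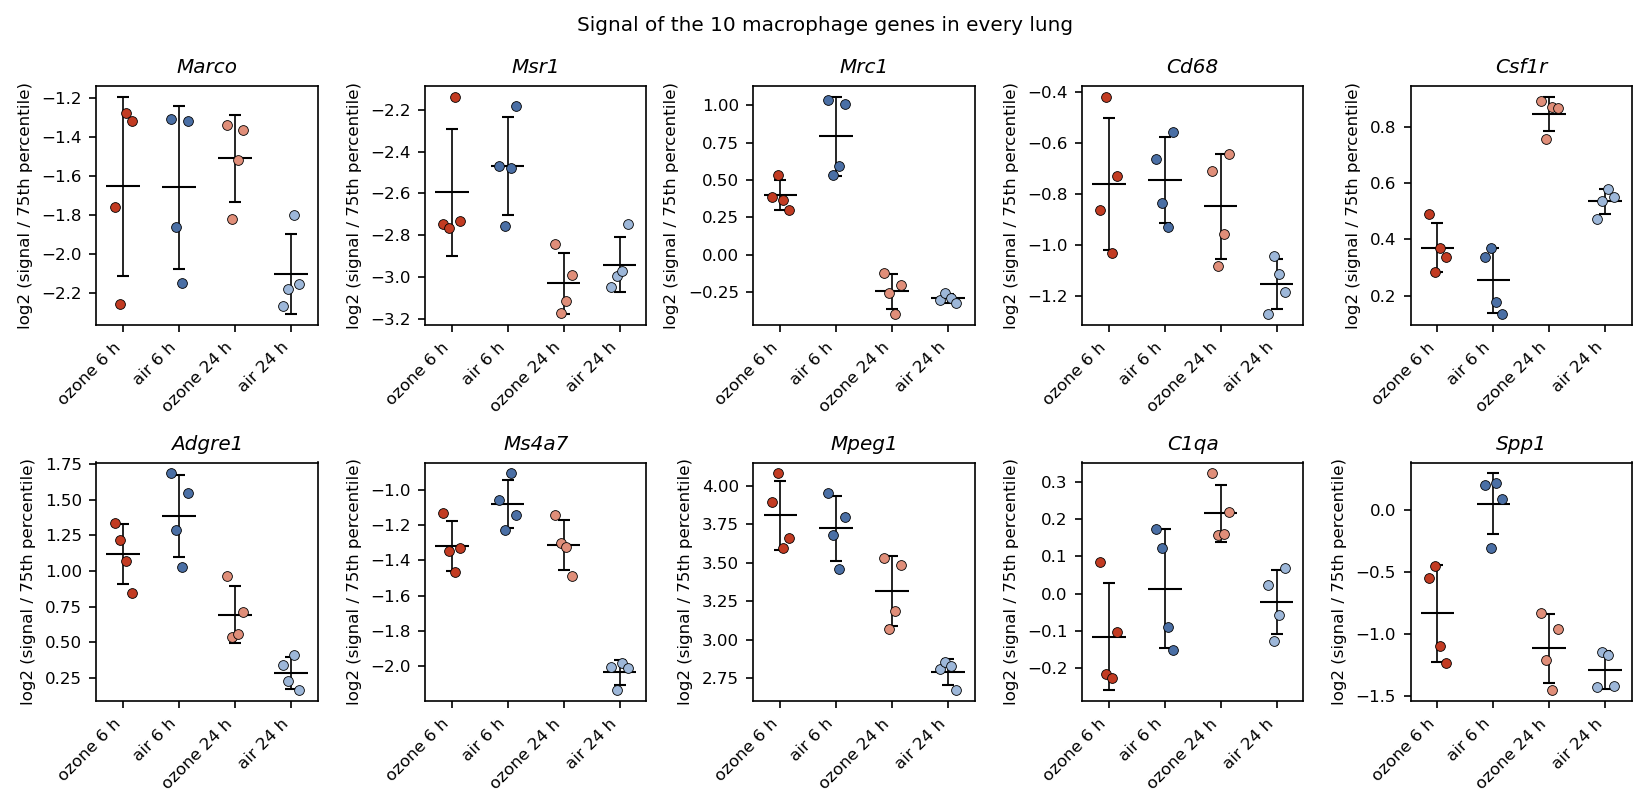
Signal of each of the 10 genes in every lung, as log2 of signal over the array's 75th percentile, with 4 points per group, the mean (line) and SD (bar). At 24 h the ozone points of Csf1r, Adgre1, Ms4a7, Mpeg1 and C1qa lie above all air points, and at 6 h those of Spp1 lie below.

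Of the secreted products, C1qa encodes a chain of C1q, the first component of the classical complement pathway, made largely by macrophages. At 24 h, C1qa read 0.32, 0.16, 0.16 and 0.22 in ozone lungs, against 0.02, -0.13, -0.06 and 0.07 in air lungs. The groups did not overlap, yet the difference of 0.24 ± 0.09 did not pass the test (adjusted p = 0.227, limma). At 6 h, C1qa averaged -0.12 ± 0.14 in ozone and 0.01 ± 0.16 in air lungs (SD, n = 4 each), with a difference of -0.13 ± 0.09 (adjusted p = 0.428, limma). C1qc, another chain of the same complex and not one of the 10 genes, gave 0.33 ± 0.09 at 24 h (adjusted p = 0.0683, limma).

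Spp1 encodes osteopontin, a secreted phosphoprotein that binds integrins and CD44 and is made by macrophages and epithelial cells. At 6 h, Spp1 read -0.55, -0.46, -1.10 and -1.23 in ozone lungs, against 0.20, -0.31, 0.21 and 0.08 in air lungs. All ozone lungs were below all air lungs, and replicates 3 and 4 of the ozone group, which share a slide, were the lowest. The difference was -0.88 ± 0.18 (0.543-fold, adjusted p = 0.012, limma), and Spp1 ranked 182 by p over all genes. It was called in all 16 fits that left out 1 lung, between -1.01 and -0.75. By slide it was -0.45 for replicates 1 and 2 (adjusted p = 0.382, limma) and -1.31 for replicates 3 and 4 (adjusted p = 0.0311, limma).

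The Spp1 probe was printed 10 times on each array, at chr5:104869788-104869847 of mm9 on the plus strand. This gives its spread between spots of an array, not the error between arrays or slides. Within an array the 10 spots had an SD between 0.07 and 0.34 on the log2 scale, the highest on air 24 h replicate 1, and every spot was well above background. At 6 h the medians over spots were -0.55, -0.45, -1.07 and -1.22 in ozone lungs, against 0.20, -0.29, 0.20 and 0.09 in air lungs. The brightest spot of ozone replicate 2, -0.35, was brighter than the dimmest of air replicate 2, -0.42, so single spots of these lungs met while their medians did not. At 24 h, Spp1 read -0.83, -1.21, -1.45 and -0.96 in ozone lungs, against -1.42, -1.14, -1.17 and -1.42 in air lungs. The groups overlapped, with a difference of 0.17 ± 0.18 (adjusted p = 0.791, limma).

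**Figure D2:**
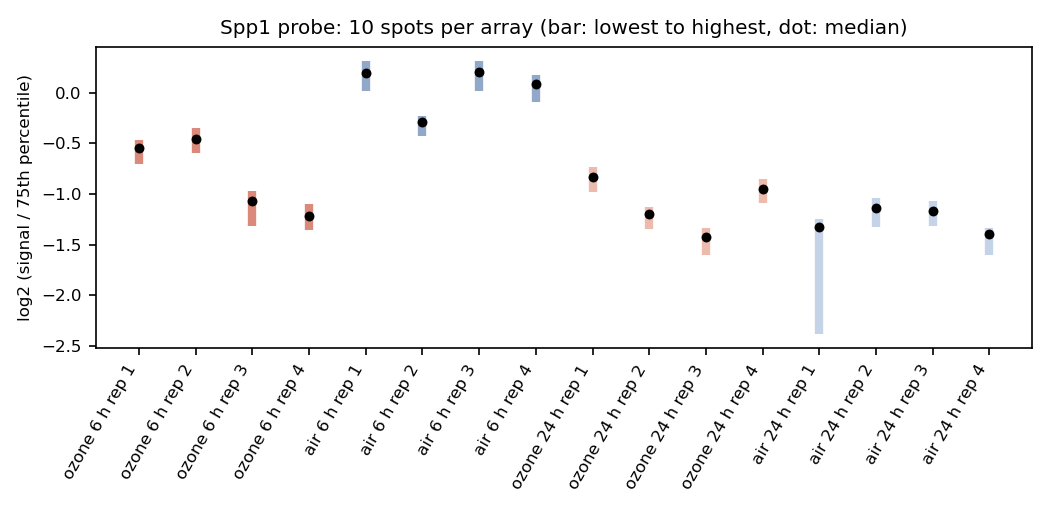
Spots of the Spp1 probe, 10 on each array, as log2 of signal over the array's 75th percentile: the bar runs between the lowest and highest spot and the dot is the median. At 6 h the ozone medians lie below the air medians, and the longest bar is that of air 24 h replicate 1, whose lowest spot read -2.38.

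Counted together at 24 h, 3 of the 10 genes were called higher and 0 lower, with 1.99% of all genes called, 0.68% higher and 1.31% lower, and at an unadjusted p under 0.05 the count was 7 genes, as against 13.3% of all genes. The ozone and air lungs did not overlap for 5 genes, all with ozone above, as against 6.79% of all genes with ozone above and 4.92% with ozone below. The median difference was 0.31 over the 10 genes and 0.02 over all genes. At 6 h, 0 of the 10 were called higher and 2 lower, with 4.41% of all genes called, 1.36% higher and 3.05% lower, and the unadjusted count was 3, as against 21% of all genes. Ozone lay below air without overlap for 1 gene, Spp1, as against 4.82% of all genes with ozone below and 4.65% with ozone above. The median difference was -0.13 over the 10 genes and 0.07 over all genes, and 7 of the 10 were negative. Of the 6 h differences near 0, those of Marco, Msr1, Cd68 and Mpeg1 took either sign under the other processing choices, and at 24 h that of Msr1 did.

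**Figure D3:**
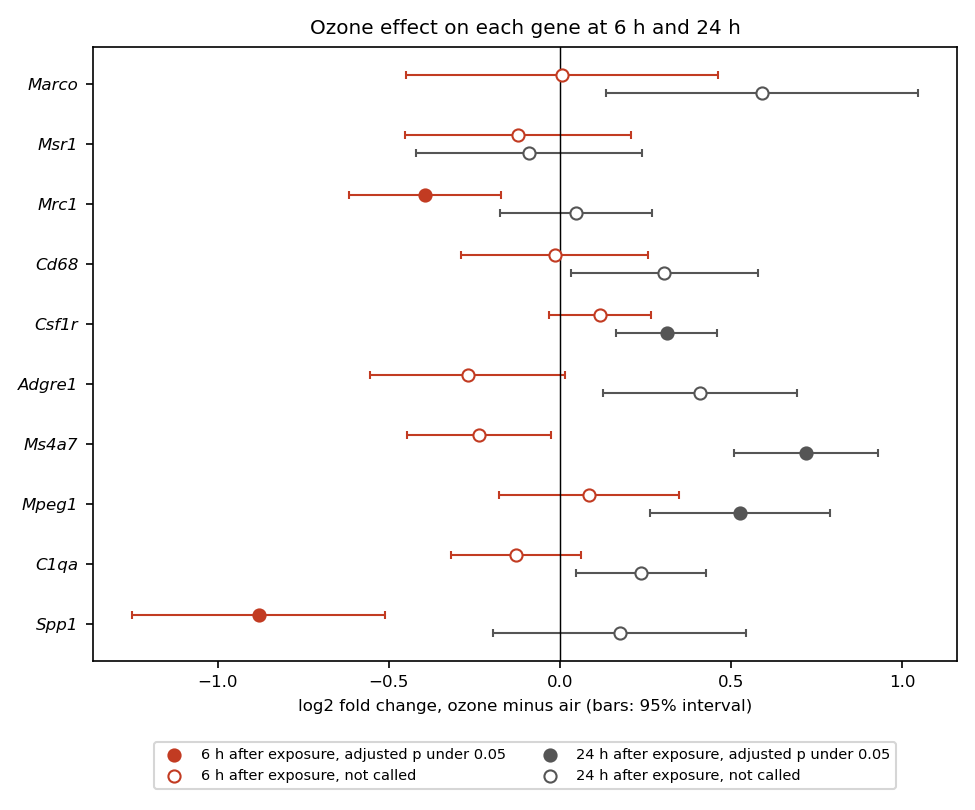
Log2 fold change, ozone minus air, of the 10 genes at 6 h and 24 h with 95% intervals, filled where the adjusted p over all genes was under 0.05. Spp1 at -0.88 and Mrc1 at -0.39 are the filled points at 6 h, and Ms4a7 at 0.72, Mpeg1 at 0.53 and Csf1r at 0.31 those at 24 h.

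Whether ozone acted differently at the time points was tested as the 24 h effect minus the 6 h effect. For Ms4a7 the effects were 0.72 and -0.24, a difference of 0.95 ± 0.14 (adjusted p = 0.0238, limma), and Ms4a7 ranked 3 by p over all genes. It was the only one of the 10 called, with 0.0647% of all genes called, 0.0462% positive and 0.0185% negative. Leaving out air 6 h replicate 4 or any of ozone 24 h replicates 1 and 2 and air 24 h replicates 1 and 2 ended the call, with differences between 0.90 and 0.97 and adjusted p between 0.0564 and 0.0718. On the slides of replicates 1 and 2 it was 0.94, and on those of replicates 3 and 4 it was 0.96. With normexp it was 0.54 (adjusted p = 0.0984, limma), no longer called, with a median of -0.21 over all genes. The call was kept under 8 of 12 alternatives. The second probe gave 1.07 ± 0.16 (adjusted p = 0.0242, limma over probes), with 0.068% of all probes called.

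For Spp1 the difference of effects was 1.05 ± 0.25 (adjusted p = 0.103, limma), called only without air 6 h replicate 2 among the fits that left out a lung (1.17, adjusted p = 0.0363, limma). Adgre1 gave 0.68 ± 0.19 (adjusted p = 0.155, limma) and Mrc1 gave 0.44 ± 0.15 (adjusted p = 0.227, limma). The differences of the other 6 ran between 0.03 for Msr1 and 0.58 for Marco. All 10 were positive, with a median of 0.44 against -0.04 over all genes. The sign of Msr1 and of Csf1r turned under some processing choices.

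**Figure D4:**
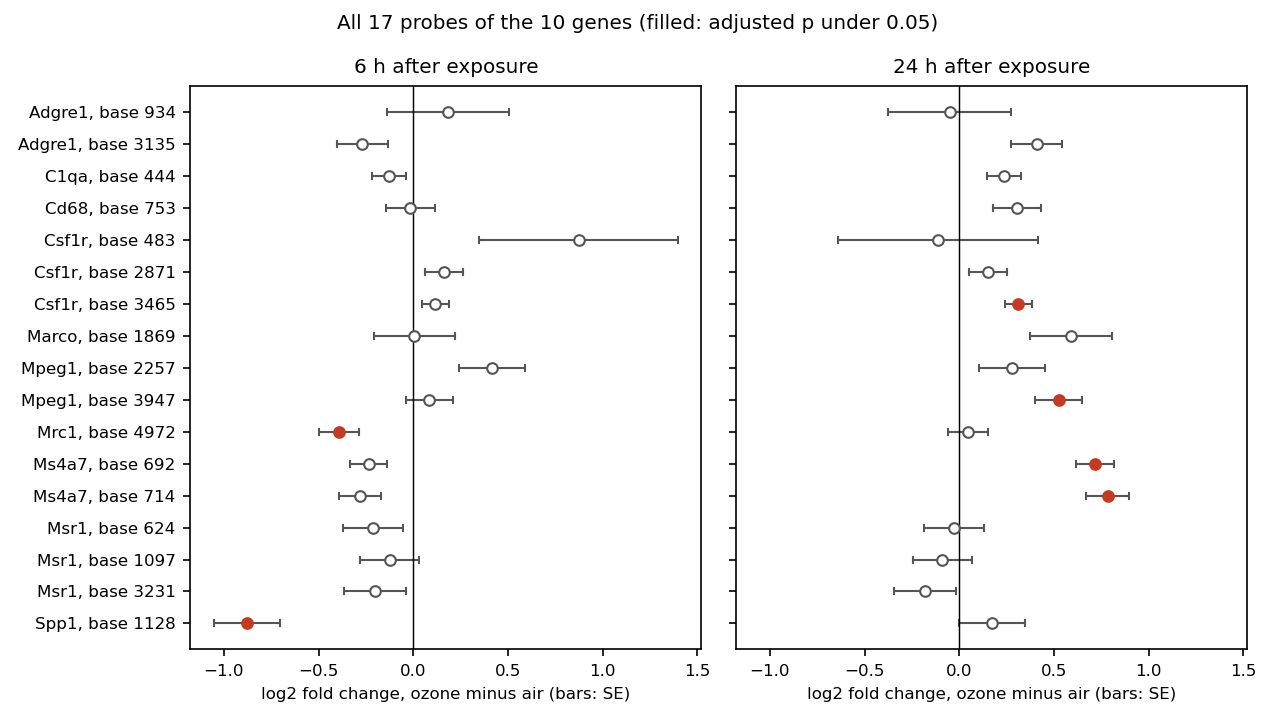
Log2 fold change, ozone minus air, of all 17 probes at 6 h (left) and 24 h (right) with SE, named by gene and first base on the transcript, filled where the adjusted p over all probes was under 0.05. Both Ms4a7 probes are filled at 24 h, at 0.72 and 0.78, whereas 1 of 3 Csf1r probes and 1 of 2 Mpeg1 probes are.

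Levels at the 2 times stand side by side without a test, since time, age and run cannot be told apart. In air lungs, 6 of the 10 genes had all 4 values at 24 h below all 4 at 6 h: Mrc1, Cd68, Adgre1, Ms4a7, Mpeg1 and Spp1. Over all genes 26.4% lay so in air lungs and 22.5% the other way. Spp1 averaged -1.29 ± 0.15 at 24 h and 0.05 ± 0.24 at 6 h in air lungs, and Ms4a7 averaged -2.03 ± 0.07 and -1.08 ± 0.14 (SD, n = 4 each). Csf1r lay the other way in air lungs, at 0.53 ± 0.05 at 24 h and 0.25 ± 0.12 at 6 h. In ozone lungs, Msr1, Mrc1 and Mpeg1 had all 24 h values below all 6 h values, whereas Csf1r and C1qa had them above, as against 24.9% of all genes below and 16.5% above. Ms4a7 averaged -1.31 ± 0.14 in ozone lungs at 24 h and -1.32 ± 0.14 at 6 h.

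Within time points, values of the 10 genes were set against each other over the 16 arrays after the mean of the 8 arrays of the time point was taken off. This mixes the ozone effect with the spread between lungs, and arrays share slides, so the values are a description. Of 45 pairs, 37 were above 0, with a median Pearson r of 0.40. Cd68 and Mpeg1 had the highest r (0.86, n = 16), followed by Mrc1 and Spp1 (0.83), the pair lower at 6 h, and Adgre1 and Mpeg1 (0.78). Msr1 and Csf1r had the lowest (-0.28).

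Among 17215 genes outside the set with probes well above background on all arrays, the one most like C1qa was C1qc (r = 0.86, n = 16), its partner chain in C1q. The gene most like Mpeg1 was Abcg1 (0.92), which encodes a cholesterol exporter. Cd68 was most like Hcar2 (0.94), a receptor for hydroxybutyrate and niacin, and Marco most like Nceh1 (0.87), a cholesteryl ester hydrolase. Ms4a7 was most like Ociad2 (0.93), Spp1 most like Ifi27 (0.92), Mrc1 most like Papola (0.96), Csf1r most like Traf1 (0.93) and Adgre1 most like Dync2li1 (0.93). For Msr1 it was a probe with no gene symbol (0.86). The 5 nearest to the mean of the 10 genes were Scx, Smyd3, Surf2, Mtf1 and a transcript without a gene symbol, between 0.90 and 0.93. With so many candidates and 16 arrays, high values are to be had for any pattern.

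Other genes of the macrophage lineage were read from lists of related genes, the 10 left out. Beside the counts called in each list stand the shares over all genes. These were 0.68% higher and 1.31% lower at 24 h, and 1.36% higher and 3.05% lower at 6 h. Beside the list medians stands the median over all genes, 0.02 at 24 h and 0.07 at 6 h. Both are above 0, so more genes were positive than negative at either time. Of 24 genes of tissue macrophages, 1 was higher and 0 lower at 24 h: Apoe, which carries lipids and is abundant in macrophages, averaged 4.59 ± 0.12 in ozone and 3.97 ± 0.11 in air lungs (SD, n = 4 each), a difference of 0.61 ± 0.10 (adjusted p = 0.00194, limma). Lyve1, a hyaluronan receptor shared by lymphatic vessels and some tissue macrophages, gave 0.65 ± 0.17 and missed the threshold (adjusted p = 0.0532, limma). The list's median at 24 h was 0.21. Its summed linear signal ran between 180 and 202 multiples of the array's 75th percentile in ozone lungs, against 150 to 162 in air lungs. Bright genes weigh most in such a sum, among them Apoe and Selenop (6.21 in ozone and 5.96 in air lungs). At 6 h, 1 of the 24 was lower, Fcrls, an Fc receptor-like gene of tissue macrophages, at -1.53 ± 0.12 in ozone and -1.07 ± 0.07 in air lungs (SD, n = 4 each), a difference of -0.46 ± 0.08 (adjusted p = 0.00731, limma).

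None of 17 genes of alveolar macrophages was called at either time by limma. At 24 h, 15 of the 17 were positive, with a median of 0.30, and Itgax, the integrin CD11c, gave 0.47 ± 0.17 (adjusted p = 0.188, limma). Plet1, a surface protein of alveolar macrophages, gave 0.55 ± 0.20 (adjusted p = 0.202, limma). The list's summed signal at 24 h overlapped between the groups, at 51.4 to 89.0 in ozone lungs, against 44.0 to 53.9 in air lungs. At 6 h the list's median was -0.03. Several members of this list, such as Krt19 and Cd9, are also made by epithelium.

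Of 18 monocyte genes, 0 were called at 24 h, with 16 positive and a median of 0.22. Their summed signal overlapped between the groups, at 357 to 411 in ozone lungs, against 339 to 376 in air lungs. The Fc receptors Fcgr2b (0.39 ± 0.10, adjusted p = 0.058, limma) and Fcgr1 (0.59 ± 0.16, adjusted p = 0.0826, limma) and the receptor gene Treml4 (0.50 ± 0.13, adjusted p = 0.0585, limma) had the smallest p. At 6 h, Cd14, the co-receptor for bacterial lipopolysaccharide, was higher, at 0.47 ± 0.17 in ozone and 0.03 ± 0.12 in air lungs (SD, n = 4 each), a difference of 0.44 ± 0.09 (adjusted p = 0.0178, limma), a call kept in 15 of the 16 fits without 1 lung. The monocyte median at 6 h was -0.04, with 12 of the 18 genes negative. Next to Cd14 by p came Lyz1 (-0.38 ± 0.11, adjusted p = 0.062, limma) and Nr4a1 (-0.83 ± 0.27, adjusted p = 0.0877, limma). After them came Ly6c2 (-0.31 ± 0.13, adjusted p = 0.184, limma), and none of these was called.

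Of 18 growth factors, receptors and transcription factors of the lineage, Irf8, needed for monocytes and macrophages, was called higher at 24 h (0.34 ± 0.07, adjusted p = 0.0245, limma, in 11 of the 16 fits that left out a lung), and Csf1, the ligand of CSF1R, was not called (0.28 ± 0.10, adjusted p = 0.168, limma). At 6 h the other ligand, Il34, was called higher (0.41 ± 0.11, adjusted p = 0.0395, limma, in 8 of those 16 fits). The transcription factor Maf (0.63 ± 0.19, adjusted p = 0.0681, limma) missed the threshold at 6 h. The list's medians were 0.19 at 24 h and 0.13 at 6 h.

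None of 16 other scavenger and uptake receptors was called by limma at either time, and their median was 0.09 at 24 h and 0.02 at 6 h. At 24 h, Clec4n, the fungal receptor dectin-2, gave 0.42 ± 0.15 (adjusted p = 0.203, limma), and Cd36 gave 0.11 ± 0.09 (adjusted p = 0.707, limma). Among 24 phagosome and lysosome genes none was called at either time by limma, 20 were positive at 24 h, and the protease Ctss gave 0.43 ± 0.16 there (adjusted p = 0.2, limma). Of 16 complement genes and partners of C1q, Calr, a chaperone that also serves as a signal for uptake of dying cells, was lower at 6 h (-0.34 ± 0.08, adjusted p = 0.0279, limma, kept in 11 of 16 fits without 1 lung), and 0 were called at 24 h. None of 15 tested integrins, Cd44 and other partners of osteopontin was called by limma at either time. Their median at 6 h, when Spp1 was lower, was 0.07, as it was over all genes. Of 17 tested genes of polarisation and repair, Igf1, a growth factor made by macrophages and mesenchyme, was lower at 6 h (-0.48 ± 0.11, adjusted p = 0.0199, limma, called in 13 of those 16 fits), and 0 were called at 24 h.

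**Figure D5:**
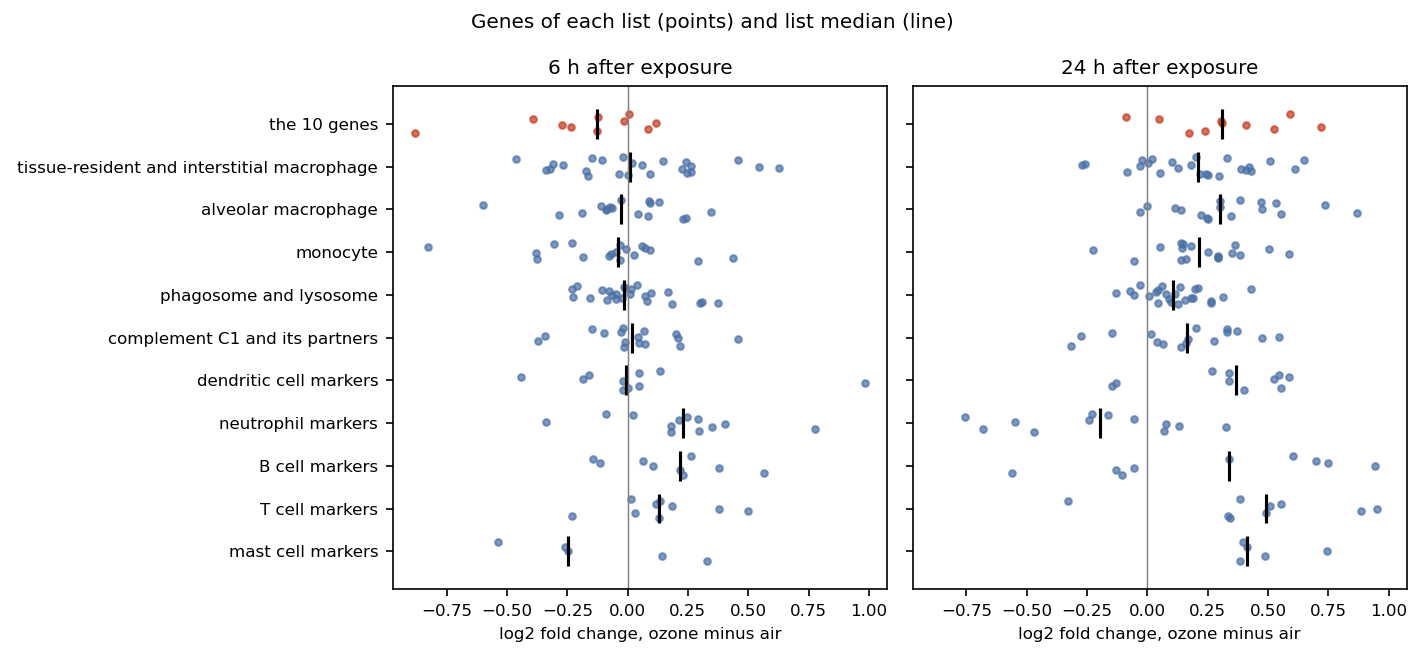
Log2 fold change, ozone minus air, of the 10 genes (red) and of each listed gene of related lists (blue points) at 6 h (left) and 24 h (right), with the median of each list as a line. At 24 h the medians are 0.31 for the 10 genes, 0.30 for alveolar macrophage, 0.22 for monocyte and 0.21 for tissue macrophage genes.

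Markers of other cells moved beside the 24 h differences of Ms4a7, Mpeg1 and Csf1r. Of all genes, 0.68% were called higher at 24 h. Of 9 T cell markers 3 were called higher in ozone lungs, Cd8b1 (0.95 ± 0.20), Lck (0.51 ± 0.13) and Cd5 (0.49 ± 0.12). By limma their adjusted p was 0.0178, 0.0452 and 0.0498, and the calls were kept in 14, 5 and 2 of the 16 fits without 1 lung. The list's summed signal ran between 3.33 and 5.12 in ozone lungs, against 2.84 to 3.06 in air lungs. Of 9 B cell markers 2 were called higher, Vpreb3 (0.94 ± 0.10) and Cd79b (0.70 ± 0.13), both in all 16 such fits. The B cell markers did not all move one way, with 5 positive, 4 negative and a median of 0.34. Their sums ran between 5.94 and 8.06 in ozone lungs, against 4.10 to 4.89 in air lungs. None of 10 tested dendritic cell markers was called by limma (8 positive, median 0.37), with sums of 14.8 to 20.2 in ozone lungs, against 11.4 to 13.4 in air lungs. None of 5 tested mast cell markers was called by limma (all 5 positive, median 0.41), with sums of 10.5 to 11.6 in ozone lungs, against 7.30 to 9.51 in air lungs. None of 12 neutrophil markers was called by limma, and their median was -0.20, with sums of 63.1 to 87.1 in ozone lungs, against 73.8 to 99.8 in air lungs. The part of these cells in the results of the 10 genes was not tested.

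Of 8 proliferation markers, 8 were called lower in ozone lungs at 24 h and 4 at 6 h, as against 1.31% and 3.05% of all genes. At 6 h, 7 of the 8 were negative and Plk1 was positive (0.07). The summed signal of the 8 markers at 24 h was 30.3 to 39.0 in ozone lungs, against 51.6 to 55.8 in air lungs. At 6 h the sum was 34.3 to 39.5 against 49.4 to 59.3. None of 7 endothelial and 7 alveolar type II markers was called at either time by limma, with medians at 24 h of -0.04 and 0.12. None of 7 tested bone and cartilage markers and 6 osteoclast markers, read because Spp1 is abundant in bone, was called by limma at either time. Their part in the results of the 10 genes was not tested.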

How the data were processed

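Whole-lung RNA was labelled with Cy3 and read on 16 Agilent arrays, 4 per group. The deposited files hold the linear intensity of each spot in the single colour used. They come from Agilent Feature Extraction 10.7.1.1 per the file headers, with background subtracted and no scaling between arrays. The deposited flags, which are other values, mark spots well above background. A table of normalized log2 values that the authors deposited served as an alternative.

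Spots of a probe were averaged, and the processed signal was divided by the array's 75th percentile before taking log2. Probes well above background on at least 4 arrays were kept, and a gene was read by its probe with the highest mean. The tests were made with limma (version 3.58.1, R 4.3.3) over all 16 arrays, with Benjamini-Hochberg adjustment over 21631 genes or 32343 probes. The number of arrays limits the precision, with a median SE of 0.13. The procedure was tested on simulated data. Positions of probes are those of the array design on mm9.

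The 10 genes and all lists were chosen with earlier results of these data known. All 10 genes are named with all probes, with up to 4 genes of smallest p per list and contrast and those most alike in pattern. A result that this rule would name is not reported here. Alternatives covered background, scaling, probes, filter, slide, replicate block, array weights, Xist and leaving out each lung.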

Additional observations from a re-analysis of the deposited data

Results flagged for a closer look

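In each group of 4 lungs a value was singled out when its gap to the next was large for the range of the group, which chance does in about 1 of 20 groups. Of 40 groups, 2 held such a value. Msr1 on ozone 6 h replicate 3 read -2.14, against -2.73 for the nearest and -2.76 for the lowest ozone lung. Csf1r on ozone 24 h replicate 2 read 0.76, against 0.87 for the nearest and 0.89 for the highest ozone lung. The ozone effect on Ms4a7 differed between the time points by 0.95, 24 h minus 6 h, in limma's test of the difference. With normexp background correction it was 0.54 and not called.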

How the results depend on the processing

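Counts of the 10 genes called were 2 at 6 h, 3 at 24 h and 1 for the difference of effects. At 6 h the count was 1 with no filter on dim probes, with slide as a block and with Xist as a covariate. On the slide of replicates 3 and 4 it was 1 and on that of replicates 1 and 2 it was 0. With the 8 arrays of the time point it was 0, where 19 of all genes were called higher and 78 lower. At 24 h it was 1 with the mean of probes and with Xist, and 0 on either slide alone. It was 4 with the 8 arrays of the time point, where 232 of all genes were called higher and 348 lower. It was 5 with array weights, where 1015 of all genes were called higher and 729 lower. For the difference it was 2 with normexp, namely Adgre1 and Spp1, while Ms4a7 lost its call (0.54, adjusted p = 0.0984, limma). With array weights it was 3 and on either slide 0. Over all genes the difference called 10 positive and 4 negative, 411 and 120 with normexp, and 318 and 108 with array weights. The slide of replicates 1 and 2 called 0 genes of the whole array, and the other slide 0 for the difference, so those counts say nothing about these genes. With the replicate block, in a paired fit, counts were 0, 1 and 0, and Spp1 at 6 h had adjusted p = 0.0544. Over all genes that fit called 73 higher and 170 lower at 6 h, and 81 and 178 at 24 h. Whether the replicate numbers pair the lungs is not settled by these values. Same-number correlations ran between -0.01 and 0.20, and the highest with another number between 0.02 and 0.43. Leaving out 1 lung gave counts between 1 and 2 at 6 h, 1 and 3 at 24 h, and 0 and 2 for the difference. Ms4a7 at 24 h was called under 10 of 13 alternatives, the lowest value being 0.40 with normexp (adjusted p = 0.0881, limma), where the median of all genes was -0.13. Over all genes, normexp called 150 higher and 782 lower at 6 h, and 332 and 325 at 24 h, beside 295 and 659 at 6 h and 147 and 283 at 24 h in the values reported. Spp1 at 6 h was called under 10 of 13. No called difference turned its sign, and 9 or 10 of the 10 genes were positive at 24 h under every alternative run. The causes were not tested. Dim probes, such as the dimmer of Adgre1 and the dimmest of Csf1r, limit what can be said of probe agreement. The second Csf1r probe was not dim, being well above background on all 16 arrays. It gave 0.15 ± 0.10 at 24 h (adjusted p = 0.636, limma over probes).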
